A study of Homo sapiens with 7 samples.

Results

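The translation initiation and elongation factors examined here are the genes whose symbol, taken from the Ensembl gene identifier of the table, begins with EIF or EEF followed by a digit, with pseudogenes left out. The rule found 64 of the 14294 genes in the table, of which 63 are protein coding and 1, EIF3J-DT, is a divergent transcript. They were represented by 3456 isoforms, 221 of them with a reference transcript identifier. Another 9 genes of GENCODE 29 meet the rule but were not analysed here, among them EIF3C, EIF3CL, EIF5AL1 and EIF2S3B. A mean of at least 5 TPM over all libraries was reached by 53 members, and comparisons were made over these and over the 7877 genes of any kind that reached it. The 11 members below that level were EIF5B, EIF1AX, EIF2AK4, EIF4E3, EIF4G3, EIF4EBP3, EEF1A2, EEF1G, EEF2K, EEF1AKMT3 and EIF3J-DT.

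The libraries were PacBio long-read libraries of polyadenylated RNA from HUES66 cells, an established line of human embryonic stem cells. Cas13d, an RNA-guided nuclease that cleaves RNA, was directed at isoforms of RBFOX2, a splicing regulator, and the series compares cells with different RBFOX2 isoforms knocked down. The control is labelled wild type. The 6 G libraries are labelled as RBFOX2 isoform knockdowns, each with an isoform id: 178147 for G3, 178149 for G5, 178136 for G11, 178135 for G12, 178145 for G13 and 178146 for G14. Values across the G libraries are given in that order, G3 first and G14 last. All 7 cultures carry the description piggyBac, a transposon used for stable integration, were given doxycycline at 1 µg/ml and harvested at 24 h. The labels do not say which isoform an id denotes, whether the control carried Cas13d or a guide, or whether a culture came from 1 clone.

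Each group had 1 library, so no difference below has a replicate check, no p-value is given, and the 95% intervals hold counting error alone. The control was the shallowest library with 16801842 reads and G12 the deepest with 26678538. Each full-length read stands for 1 cDNA molecule, and a TPM value here is a gene's share of its library's reads, not divided by transcript length. Of 8 markers of pluripotent stem cells, 7 had reads in every library and SOX2 was not analysed here. POU5F1 was highest in the control at 915 TPM, with 377 to 588 in the G libraries, and so was NANOG at 10.0 TPM, with 3.49 to 5.54. DPPA4 (745 TPM), L1TD1 (18.2) and TDGF1 (37.6) were lowest in the control, and reached 1002, 41.0 and 59.7 TPM in G libraries. LIN28A ranged from 73.2 to 182 TPM and ZFP42 from 108 to 172, with the control inside both ranges. The part of these marker levels in the differences below was not tested. FOXA2, GATA4, TBXT and HAND1, markers of endoderm and mesoderm, lay between 0 and 0.144 TPM. RBFOX2 itself stood at 107 TPM in the control and 42.1, 96.8, 82.9, 88.5, 55.9 and 106 TPM across the G libraries. Every G library lay below the control, G14 by the least.

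Initiation begins when eIF2 carries the initiator transfer RNA to the small ribosomal subunit, which eIF1, eIF1A, eIF3 and eIF5 help to assemble and to scan for a start codon. The eIF4F complex, made of the cap-binding protein eIF4E, the scaffold eIF4G and the helicase eIF4A, brings the mRNA. eIF2B reloads eIF2 with GTP, the eIF2 kinases block that step under stress, and eEF1 and eEF2 then deliver transfer RNAs and move the ribosome along the mRNA. Many mRNAs of this machinery begin with a run of pyrimidines after a cap-adjacent C, the terminal oligopyrimidine (TOP) start, through which their translation responds to growth signalling.

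The annotated starts of the members were read for such a run, since it is the best known regulatory sequence the family shares. A start was counted when the first base of the transcript was C and at least 4 further C or T followed, on the strand of the gene only. This held for 12 of the 42 compared members with a start in the RefSeq promoter table (28.6%), for 512 of 6521 compared genes (7.85%) and for 1429 of all 35116 starts (4.07%). The 12 members were EEF1A1, EEF1B2, EEF2, EIF2A, EIF2D, EIF2S3, EIF3D, EIF3F, EIF3K, EIF3M, EIF4A2 and EIF4B. The lines below give 10 bases before the annotated start and the first 20 transcribed bases for 8 of these genes (RefSeq, GRCh38.p14), with the pyrimidine run in capitals. EIF4A1, whose annotated start has no run, stands last for contrast.
EEF1A1, chr6:73521013-73521042, minus strand: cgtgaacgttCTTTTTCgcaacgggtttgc
EEF1B2, chr2:206159885-206159914, plus strand: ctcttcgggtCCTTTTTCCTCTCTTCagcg
EEF2, chr19:3985444-3985473, minus strand: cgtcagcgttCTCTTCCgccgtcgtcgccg
EIF3F, chr11:7987327-7987356, plus strand: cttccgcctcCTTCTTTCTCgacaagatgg
EIF3K, chr19:38619178-38619207, plus strand: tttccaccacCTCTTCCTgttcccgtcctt
EIF3M, chr11:32583821-32583850, plus strand: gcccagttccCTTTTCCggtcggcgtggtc
EIF4A2, chr3:186783567-186783596, plus strand: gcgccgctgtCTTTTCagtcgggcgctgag
EIF4B, chr12:53006446-53006475, plus strand: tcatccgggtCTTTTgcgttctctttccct
EIF4A1, chr17:7572815-7572844, plus strand: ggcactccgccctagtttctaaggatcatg

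The runs were 16 bases long in EEF1B2, 10 in EIF3F, 8 in EIF3K, 7 in EEF1A1, EEF2 and EIF3M, 6 in EIF4A2 and 5 in EIF4B. The median log2 ratio to the control was 0.11, 0.19, 0.06, -0.22, 0.01 and 0.06 across the G libraries for the 12 members with a run. For the 30 without one it was 0.07, 0.09, -0.29, -0.20, -0.19 and -0.27, lower in each library but G12. Whether the 2 sets differ was not tested. The sequence describes an annotated start; which start the molecules used was not read here.

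Among the members, mRNA level spanned from EIF5A, with a mean of 3363 TPM, to EEF1A2, which was listed at 0 in 4 libraries and had 2 reads in the control. After EIF5A, which binds the ribosome and relieves stalls at prolines, came the helicase gene EIF4A1 (mean 2627 TPM), EIF4A3 (1816), a core subunit of the exon junction complex rather than of eIF4F, and EIF4G2 (1445), a scaffold that lacks the eIF4E-binding site. EIF3M (1032), EIF2S1 (1006), EIF3E (908), EIF4A2 (705), EIF3I (536) and EIF3L (531) completed the 10 highest. EIF5A, EIF4A1 and EIF4A3 lay at the 99.9th, 99.8th and 99.6th percentile of all genes in the table. Of EIF3L, 6631 of the 7178 control reads stood under an identifier that joins gene and transcript, and they were counted with the gene.

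Some factors known as very abundant were low in the table. EEF1A1, which delivers aminoacyl transfer RNA, had a mean of 54.7 TPM, EEF1G 3.62 and EIF3F 12.5. GENCODE 29 names 39 pseudogenes for EEF1A1, 8 for EEF1G and 2 for EIF3F, and how the authors treated reads that match several copies is not given in the sources used here. EEF1G had 21 listed isoforms, of which 0 had a reference transcript identifier. The levels of these genes are therefore uncertain. Over the family, the 26 members with a named pseudogene had a median of 188 TPM and the 38 without one 49.7 TPM. The part of such copies in the low levels was not tested.

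The members together held 2.20% of the control's reads and between 1.79% (G14) and 2.01% (G13) of those of a G library. Gene by gene, the highest library stood above the lowest by a median of 1.79-fold over members and 1.82-fold over all genes compared, and 21 of 53 members (39.6%) spanned at least 2-fold, against 40.9% of all genes. The widest ranges among members with a mean of at least 20 TPM were those of EIF4G1 (7.28-fold), EEF1D (5.47), EIF5 (3.91), EIF3G (3.82) and EIF1 (3.73). The narrowest were those of EIF2B2 (1.17), EIF2B4 (1.23), EEF1AKMT2 (1.25), EIF3M (1.32) and EIF4A2 (1.38). The control held the highest level of 17 members (32.1%, against 20.5% of all genes compared) and the lowest of 15 (28.3%, against 21.1%). In bulk RNA, fewer cells of a kind and less RNA per cell cannot be told apart.

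A member was counted as higher or lower when log2(TPM + 0.5) differed from the control by at least 1.5-fold. In G3, 6 of 53 were higher (background 8.71% of all genes compared) and 11 lower (12.3%). In G5, 1 was higher (3.71%) and 13 lower (17.2%), and in G11 3 were higher (6.53%) and 16 lower (22.5%). G12 had 1 higher (5.08%) and 16 lower (22.6%), and G13 had 1 higher (6.86%) and 16 lower (29.1%). G14 had 10 higher (15.5%) and 22 lower (31%). As shares of the 53, the lower members were 20.8%, 24.5%, 30.2%, 30.2%, 30.2% and 41.5% in that order. They lay above the background in each comparison, and by the least in G13. All 6 comparisons share the control, so the counts are not independent of each other.

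No member was 2-fold higher in any G library, against a background of 1.89%, 0.533%, 0.724%, 0.546%, 1.04% and 3.97% across the G libraries, and 4, 10, 8, 4, 8 and 14 were 2-fold lower, against 5.14%, 10.1%, 10.4%, 8.79%, 14.6% and 18.9%. The median log2 ratio of the members was 0.09 in G3 and 0.09 in G5, where the median of all genes compared was 0.12 and 0.14. From G11 to G14 it was -0.16, -0.23, -0.16 and -0.23, beside -0.04, -0.16, -0.21 and -0.10 over all genes. Family and transcriptome thus had nearly the same centre, and the members are best read one by one against these shifts. The heat map of ratios gives every compared member by role.

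**Figure D1:**
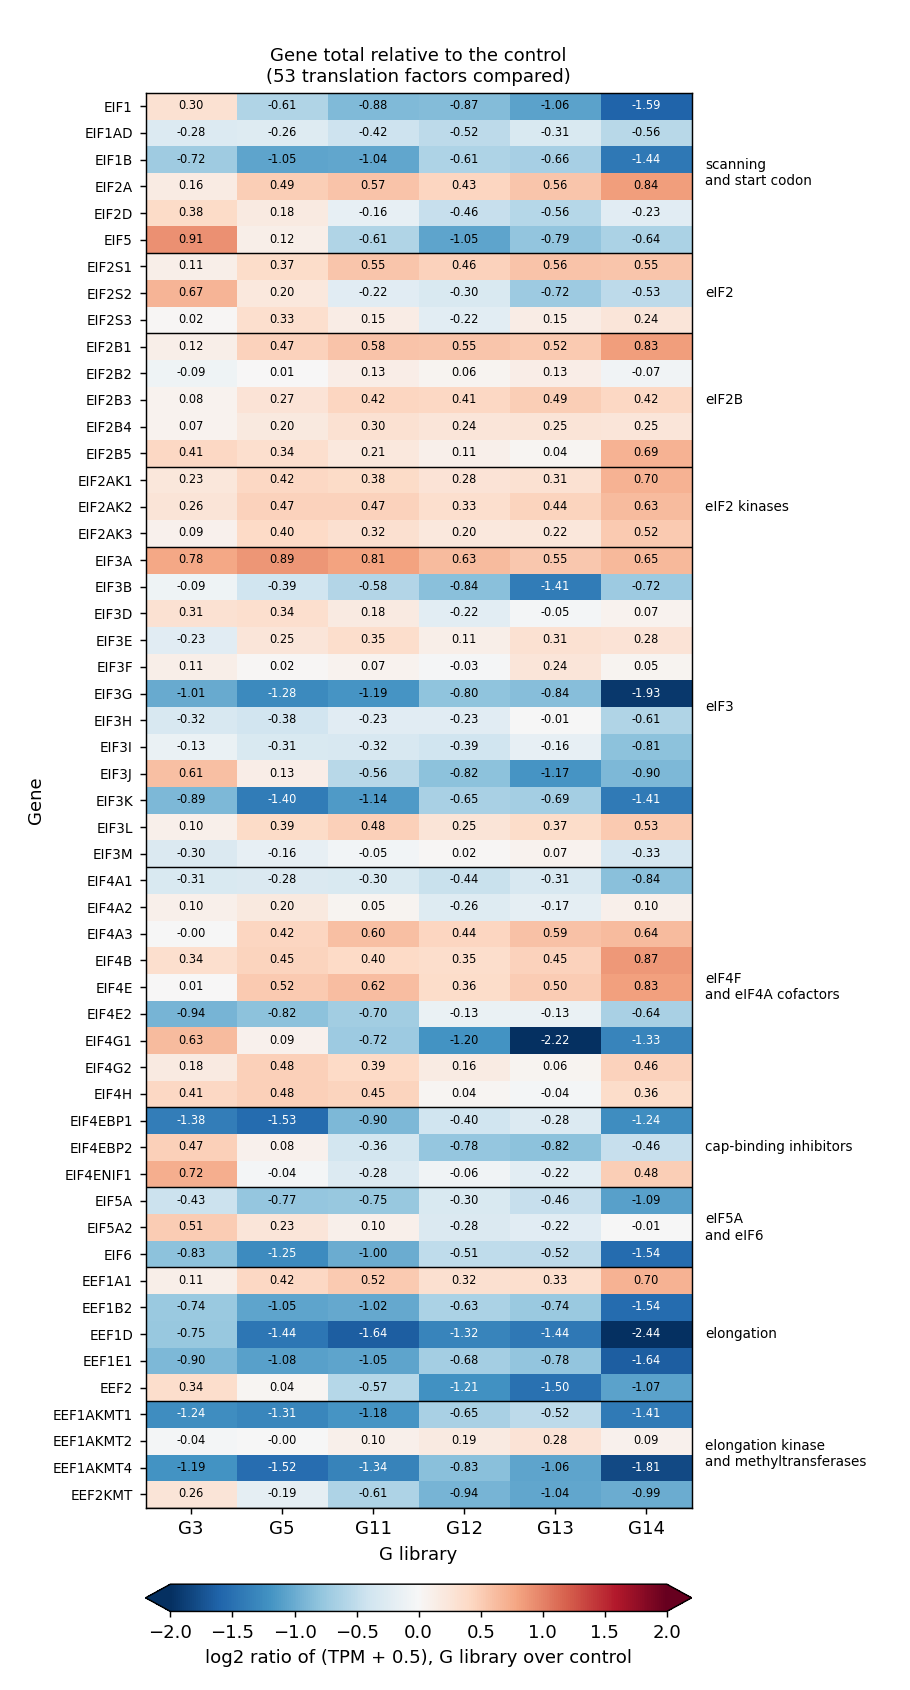
log2 ratio of (TPM + 0.5) in each G library over the control, for the 53 compared members grouped by role; red is higher and blue lower than the control, with 1 library per column. The eIF2B and eIF2 kinase blocks are pale to red throughout, the elongation block is mostly blue, and EIF4G1, EEF2 and EIF5 turn from red in G3 to blue in G12, G13 and G14.

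Among the scanning and start codon factors, EIF5 and EIF1 were wide in range and EIF2A rose. EIF5 (chromosome 14, 103333544 to 103345025), the GTPase-activating protein of eIF2, stood at 170 TPM in the control and 319, 185, 111, 81.6, 97.7 and 109 TPM across the G libraries. It was at 188% of the control in G3 (95% interval 179 to 196) and at 48.1% in G12 (45.4 to 50.8). Only G3 and G5 were above the control.

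EIF1 (chromosome 17, 41688885 to 41692668), which keeps the scanning ribosome open until a start codon is met, had 376 TPM in the control and 463, 247, 204, 205, 180 and 124 TPM across the G libraries. It fell in each G library but G3, to 33.0% of the control in G14 (31.5 to 34.6), and against the median of the other 6 libraries its log2 ratio in G5 was 0.27. Its close paralog EIF1B had 110 TPM in the control and 66.7, 52.9, 53.2, 71.9, 69.4 and 40.3 TPM across the G libraries. EIF1B thus fell below the control in all 6 G libraries, G3 included. In G3, G12 and G13 it nevertheless lay above the median of the other 6 libraries. EIF2A, an alternative carrier of initiator transfer RNA unrelated to the eIF2 subunits, was lowest in the control at 153 TPM and highest in G14 at 275 (180%, 171 to 188), where it passed 1.5-fold.

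Some start codon factors were below 5 TPM and are given as reads. EIF5B, the GTPase that joins the ribosomal subunits, had 57 reads in the control and 173, 83, 15, 22, 6 and 19 reads across the G libraries. That is 286% of the control in G3 (211 to 393) and 7.76% in G13 (2.73 to 18.0). EIF1AX, the partner of eIF1 in scanning, had 25 reads in the control, 59 in G3 and between 9 and 26 in the other G libraries. Their annotated transcripts are 5777 and 4427 nt long.

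The eIF2 complex and its regulators differed in range, from 1.17-fold for EIF2B2 to 2.63-fold for EIF2S2 among the eIF2 and eIF2B genes. EIF2S1, the subunit that the eIF2 kinases phosphorylate, had 770 TPM in the control and 831, 993, 1129, 1055, 1138 and 1125 TPM across the G libraries. It lay above the control in every G library and passed 1.5-fold in none. EIF2S2 went the other way after G3, with 505 TPM in the control and 804, 581, 433, 410, 306 and 349 TPM across the G libraries. It rose in G3 (159%, 155 to 164) and fell in G13 (60.7%, 58.8 to 62.7). EIF2S3, the GTP-binding subunit, ranged from 132 to 194 TPM.

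No eIF2B gene fell by 1.5-fold in any G library, and EIF2B1 and EIF2B5 rose in G14. The 5 genes encode the exchange factor for eIF2. Over all genes compared, 12.3% (G3) to 31% (G14) fell, and 15.5% rose in G14. EIF2B1 (chromosome 12, 123620406 to 123633766) had 265 TPM in the control and 288, 366, 395, 389, 380 and 471 (178%, 172 to 184) across the G libraries. EIF2B4 (chromosome 2, 27364352 to 27370486) stayed between 220 in the control and 270 in G11, EIF2B3 between 238 and 333, and EIF2B2 between 120 and 141. EIF2B2 was a little below the control in G3 (93.9%, 88.4 to 99.7) and G14 (95.1%, 89.7 to 101). The median log2 ratio over the 5 was 0.08, 0.27, 0.30, 0.24, 0.25 and 0.42 across the G libraries, above that of all genes compared in each library but G3. After rescaling by the median of ratios it was 0.05 to 0.54.

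Of the eIF2 kinases, EIF2AK1 (HRI, activated by heme shortage) rose from 123 TPM to 200 in G14, and EIF2AK2 (PKR, activated by double-stranded RNA) from 43.7 to 67.8. EIF2AK3 (PERK, which senses stress of the endoplasmic reticulum) ranged from 9.11 to 13.3 TPM with the control lowest. In the other 5 G libraries none of the 3 passed 1.5-fold. EIF2AK4 (GCN2, which senses uncharged transfer RNA) had 29 reads in the control, 66 in G3 and 5 in G13, below the level compared.

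**Figure D2:**
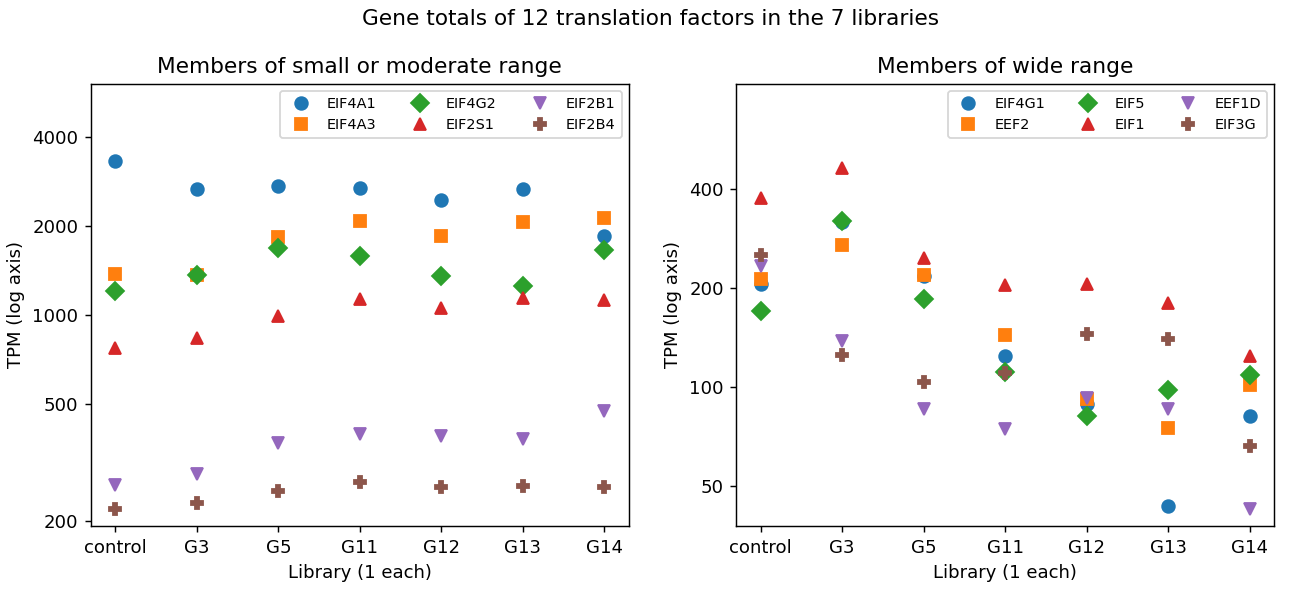
Gene totals (TPM, log axis) of 12 members in the 7 libraries, 1 point per library. On the left EIF4A1 is highest in the control and EIF4A3, EIF2S1 and EIF2B1 are at or near their lowest there; on the right EIF4G1 spans 43.6 to 318 TPM and EEF1D and EIF3G are highest in the control.

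The eIF3 complex, the largest initiation factor, showed no common direction. Of its 12 compared genes, 2 were higher and 2 lower in G3, and in G14 1 was higher and 6 were lower. Over all genes compared, 8.71% were higher and 12.3% lower in G3, and 15.5% and 31% in G14. EIF3A, the core scaffold, had 213 reads in the control (12.7 TPM) and 22.1, 23.9, 22.6, 19.9, 18.7 and 20.1 TPM across the G libraries. It rose in every G library but G13, where it was at 148% (125 to 175), and with the median of the other 6 libraries in place of the control its log2 ratio in G12 and G14 was -0.08 and -0.06. EIF3G, a subunit near the mRNA channel, had 252 TPM in the control and 125, 104, 111, 144, 140 and 66.0 TPM across the G libraries. The control was highest by a wide margin and G14 lowest (26.2%, 24.6 to 27.8). With the median of the other 6 libraries as the reference, EIF3G turned to 0.0071 in G3, 0.29 in G12 and 0.25 in G13 on the log2 scale.

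EIF3K, a peripheral subunit, had 84.2 TPM in the control and between 31.4 and 53.3 in the G libraries, and it fell in all 6. Against the median of the other 6 libraries its log2 ratio was 0.02 in G3, 0.36 in G12 and 0.33 in G13, the opposite direction. EIF3J, which helps recycle the small subunit, had 34.6 TPM in the control and 53.0, 38.0, 23.3, 19.3, 15.1 and 18.3 TPM across the G libraries. It rose in G3 and fell in G12, G13 and G14, the same order of libraries as EIF2S2. EIF3B had few reads, 131 in the control and 60 in G13. The subunits EIF3M (879 to 1158 TPM), EIF3E (690 to 1031), EIF3L (427 to 615), EIF3D (223 to 328) and EIF3F (11.7 to 14.2) passed 1.5-fold in no G library.

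In the cap-binding complex the paralogs parted. EIF4G1 (chromosome 3, 184314495 to 184335358), the scaffold, had 205 TPM in the control and 318, 218, 124, 89.1, 43.6 and 81.4 TPM across the G libraries. It was at 155% of the control in G3 (148 to 162) and 21.2% in G13 (19.8 to 22.8). EIF4G2 (chromosome 11, 10797050 to 10809110) ran from 1208 TPM in the control to 1687 in G5 and did not pass 1.5-fold. The third paralog, EIF4G3, had 31 reads in the control, 12 in G3 and 13 in G14, and between 1 and 13 in the others.

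Of the eIF4A genes, EIF4A1 (chromosome 17, 7572706 to 7579005) had 3320 TPM in the control and 2673, 2727, 2698, 2449, 2672 and 1853 TPM across the G libraries. It fell in G14 (55.8%, 55.1 to 56.5). EIF4A2, its near-identical paralog, ranged from 584 to 806 TPM without passing 1.5-fold. EIF4A3 (chromosome 17, 80135214 to 80147183) had 1371 TPM in the control and 1369, 1840, 2083, 1856, 2060 and 2136 TPM across the G libraries. It rose in G11, G13 and G14, so that EIF4A1 was 2.42 times EIF4A3 in the control and 0.868 times in G14.

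EIF4E (chromosome 4, 98871684 to 98930637), the cap-binding protein, had 181 TPM in the control and 183, 260, 279, 233, 257 and 321 TPM across the G libraries. It rose in G11 and G14 (177%, 170 to 185). EIF4E2, a cap-binding protein known for repressing translation, had 390 TPM in the control and 204, 220, 241, 358, 357 and 250 TPM across the G libraries. It fell in G3, G5, G11 and G14, while G12 and G13 were near the control. EIF4B and EIF4H, cofactors of the helicase, had 60.2 to 110 TPM and 80.7 to 116 TPM, and EIF4B rose in G14.

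Of the proteins that hold eIF4E back, EIF4EBP1 had 178 TPM in the control and 68.1, 61.2, 95.6, 135, 147 and 75.3 TPM across the G libraries. It fell in G3, G5, G11 and G14 and was nearest the control in G12 and G13, as EIF4E2 was. EIF4EBP2 had 187 TPM in the control and 259, 198, 145, 109, 106 and 135 TPM across the G libraries, highest where EIF4EBP1 was near its lowest. It fell in G12 and G13. EIF4EBP3 had 4 reads in the control.

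EIF5A (chromosome 17, 7306999 to 7312463) had 4771 TPM in the control and 3537, 2804, 2828, 3883, 3479 and 2241 TPM across the G libraries. It fell in G5, G11 and G14 (47.0%, 46.4 to 47.5). EIF6, which keeps the ribosomal subunits apart, had 415 TPM in the control and 234, 174, 208, 291, 290 and 143 TPM across the G libraries. EIF5A2, the minor paralog of EIF5A, stayed between 7.83 and 13.9 TPM.

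The elongation genes were mostly lower than the control. Of 5 compared, 3 were lower in G3, G5 and G11 and 4 in G12, G13 and G14. Over all genes compared, 12.3%, 17.2%, 22.5%, 22.6%, 29.1% and 31% were lower across the G libraries. EEF1B2, EEF1D and EEF1E1 were lower in every G library, and each has an annotated transcript under 1300 nt. Of all compared genes under that length, 71.4%, 83.7%, 77.4%, 44.9%, 46.7% and 83.0% were lower in the same order. The median log2 ratio of the 5 ran from -0.68 in G12 to -1.54 in G14. With the length and GC trend described below removed, 0, 2, 1, 1, 2 and 3 of the 5 were lower. Under that setting 6.61%, 8.62%, 11%, 10.4%, 13.9% and 17.8% of all genes were lower. EEF1D (chromosome 8, 143579697 to 143599541), a subunit of the exchange factor for eEF1A, had 233 TPM in the control and 138, 85.6, 74.3, 92.8, 85.7 and 42.5 (18.3%, 17.0 to 19.7) across the G libraries. EEF1B2, its catalytic partner, had 303 TPM in the control and 181, 146, 149, 195, 181 and 104 TPM across the G libraries. EEF1E1, a scaffold protein of the aminoacyl-tRNA synthetase complex, had 342 TPM in the control and between 109 and 213 in the G libraries. All 3 were highest in the control and lowest in G14. Against the median of the other 6 libraries, EEF1D turned to 0.68 in G3 and 0.11 in G12. EEF1E1 turned to 0.0151, 0.30 and 0.19 in G3, G12 and G13, and EEF1B2 also lay above that median in those libraries.

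EEF2 (chromosome 19, 3976056 to 3985469), the translocase, was unlike them in G3 and G5. It had 213 TPM in the control and 271, 220, 144, 91.8, 75.2 and 101 TPM across the G libraries. It fell in G12, G13 and G14, to 35.2% of the control in G13 (33.2 to 37.3). EEF1A1 moved against the rest of the group, with 42.5 TPM in the control and 69.3 in G14 (163%, 149 to 179), on a level that is uncertain for the reason given.

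The enzymes that modify the elongation factors split in a like way. EEF1AKMT1, a lysine methyltransferase of eEF1A, had 23.0 TPM in the control and between 8.35 and 15.8 in the G libraries, and EEF1AKMT4 27.0 and between 7.35 and 15.0. Against the median of the other 6 libraries, EEF1AKMT1 turned to 0.56 in G12, where EEF1AKMT4 also lay above that median. EEF1AKMT2 stayed between 99.6 and 124 TPM. EEF2KMT, which methylates eEF2, had 56.5 TPM in the control and 67.6, 49.6, 36.9, 29.3, 27.3 and 28.2 TPM across the G libraries. It was highest in G3 and lowest in G13, as EEF2 was. EEF2K, the kinase that inhibits eEF2, had 33 reads in the control, 49 in G3 and 5 in G14.

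Transcript length moved with these differences. The 10 compared members with an annotated transcript under 1300 nt, a limit set after the values were seen, were EEF1AKMT1, EEF1B2, EEF1D, EEF1E1, EIF1B, EIF3G, EIF3I, EIF3K, EIF4EBP1 and EIF6. Their median log2 ratio was -0.86, -1.27, -1.05, -0.64, -0.67 and -1.49 across the G libraries. Over all 920 compared genes under that length it was -0.85, -1.18, -0.94, -0.51, -0.53 and -1.26, so short members and short genes in general had like values. The other 43 members had medians between -0.03 and 0.20.

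Across the 53 members, Spearman's rho of the log2 ratio with annotated length was 0.68, 0.61, 0.52, 0.30, 0.26 and 0.53 across the G libraries. Over the 7853 compared genes with a length it was 0.41, 0.46, 0.31, 0.14, 0.08 and 0.34. With GC content it was between -0.24 and -0.43 over members and between 0.08 and -0.51 over all genes. These are descriptions across genes that share libraries, and the part of length and GC content in any difference was not tested. The annotated length can exceed that of the molecules, as for EIF4E at 10604 nt.

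**Figure D3:**
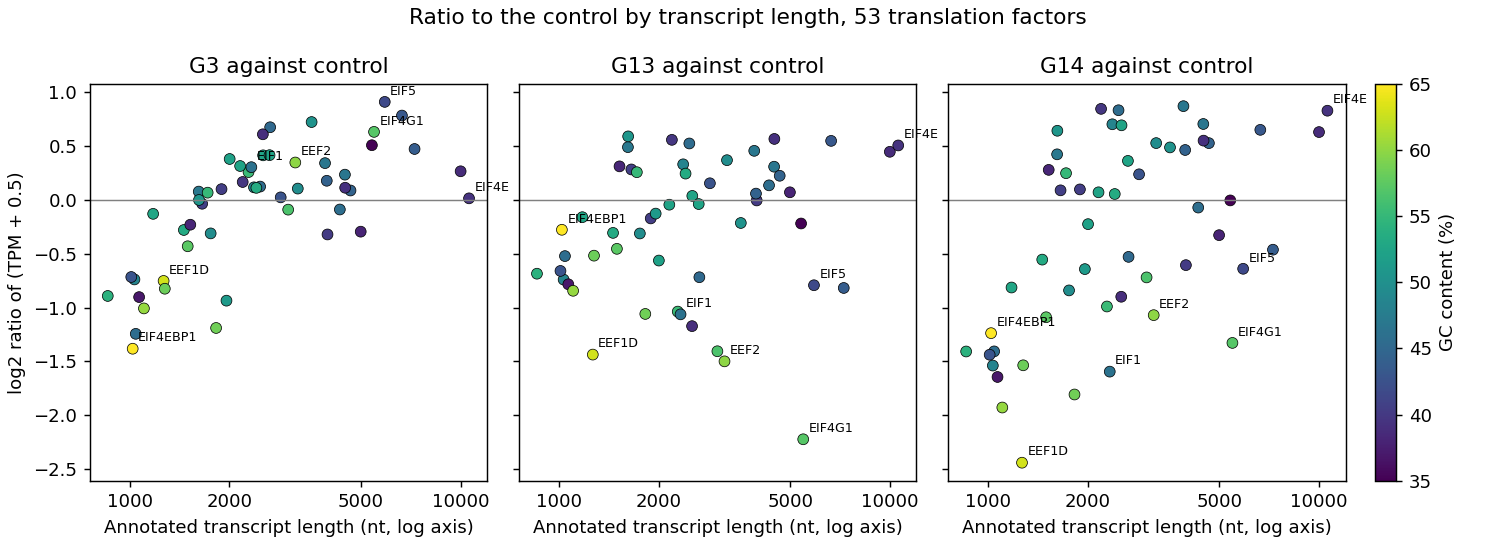
log2 ratio of (TPM + 0.5) over the control against annotated transcript length (log axis) for the 53 compared members in G3, G13 and G14, coloured by GC content (%). Members under 1300 nt lie below 0 in all 3 panels, and EIF4G1 at 5473 nt and 57.1% GC lies above 0 in G3 and lowest of all in G13.

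When a smooth trend of length and GC content over all genes was subtracted, 4, 8, 7, 6, 9 and 17 members were lower by 1.5-fold across the G libraries. As shares of the 53 these were 7.55%, 15.1%, 13.2%, 11.3%, 17.0% and 32.1%, beside 6.61%, 8.62%, 11%, 10.4%, 13.9% and 17.8% of all genes under the same setting. The counts in G3, G11 and G12 were thus near the background, and those in G5 and G14 lay above it. Those higher were 2, 2, 3, 1, 4 and 8, or 3.77%, 3.77%, 5.66%, 1.89%, 7.55% and 15.1%, beside 5.02%, 3.30%, 8.56%, 9.60%, 14.4% and 17.3% of all genes.

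Of the members lower as deposited, 4 of 11, 7 of 13, 6 of 16, 6 of 16, 9 of 16 and 15 of 22 were still lower by 1.5-fold across the G libraries with the trend removed. Of those higher, 2 of 6 were still higher in G3 and 7 of 10 in G14. EIF1, EIF5, EIF4A3 and EIF4E held every call. EIF1 had log2 ratios of -0.71, -0.98, -0.89, -1.11 and -1.71 from G5 to G14, and EIF5 had 0.74 in G3 and -1.08 in G12.

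EEF1D went from -2.44 to -1.30 in G14 and was inside 1.5-fold in G3 at -0.43. EIF4G1 was past 1.5-fold in G13 (-0.80) and G14 (-0.63) and inside it in G3 (0.07), G11 (-0.30) and G12 (-0.40). EIF3G and EIF1B held their call in G14 alone. EEF2, EIF3K and EIF5A held none of theirs, with EEF2 at -0.33 in G13 and -0.38 in G14. The rises of EIF2AK1 and EIF2AK2 in G14 also came inside 1.5-fold, at 0.53 and 0.58, and the median of the eIF2 kinases in G3 turned from 0.23 to -0.03. EIF4EBP1 turned to 0.16 in G11 and 0.27 in G14. The median of the eIF2B genes with the trend removed ran from 0.15 to 0.65, and that of the elongation genes from -0.19 to -0.93.

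Isoform shares moved less in this family than over all genes compared. The part of genes with 1 main isoform in this was not tested. For each gene the leading isoform is the one with the highest mean share of the gene's reads. It held at least 90% of reads in 25 of 53 members (47.2%), against 29.2% of all genes compared. Its share lay at least 10 percentage points from the control in 2, 2, 3, 2, 3 and 3 members across the G libraries, that is in 3.77% to 5.66% of them. The background over all genes compared was 10.7%, 10.8%, 10.9%, 11.1%, 14.2% and 14.6%. The largest difference over the 6 G libraries had a median of 3.60 points in members and 5.86 in all genes, and 33 members (62.3%, against 43.7%) never passed 5 points. Among genes with at least 100 reads in every library, 1, 1, 2, 1, 2 and 2 of 52 members passed 10 points, beside 8.39%, 8.87%, 8.94%, 9.12%, 11.3% and 12.4% of all genes, and the median largest differences were 3.47 and 5.27 points.

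**Figure D4:**
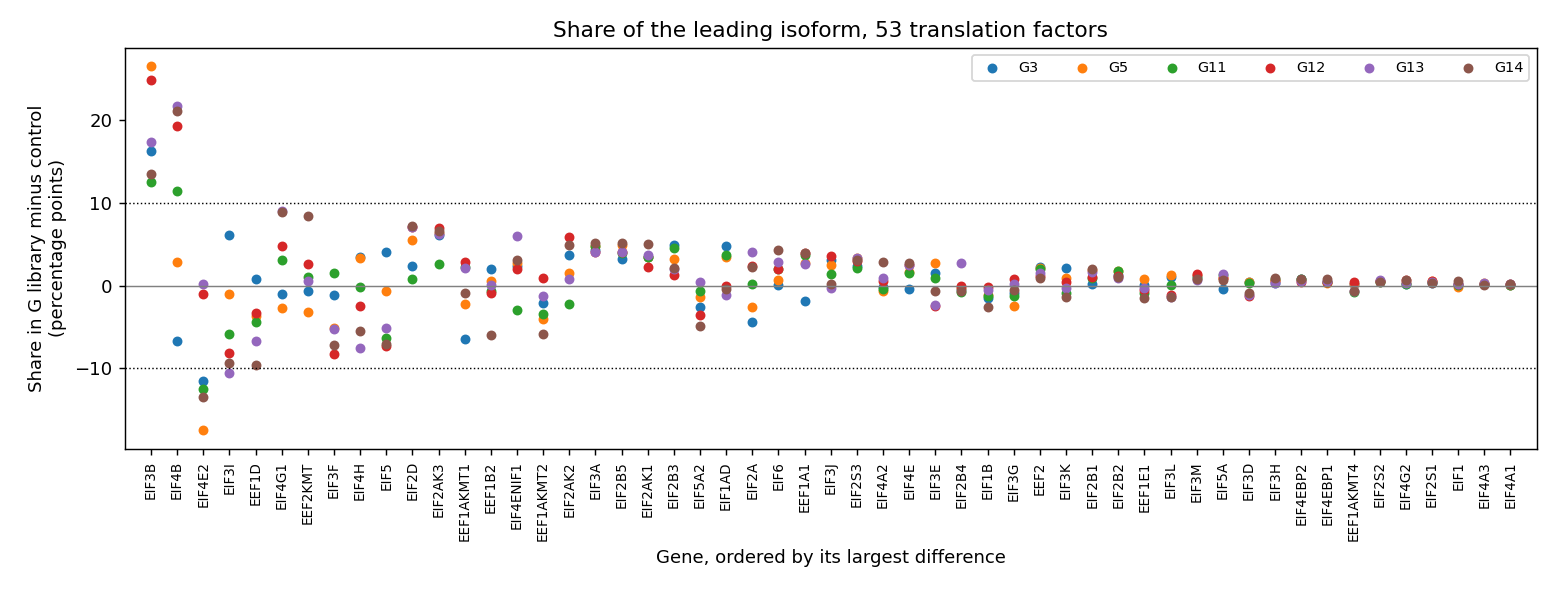
Share of the leading isoform in each G library minus the control (percentage points) for the 53 compared members, ordered by the largest difference; dotted lines mark 10 points either way. EIF3B, EIF4B, EIF4E2 and EIF3I are the members past the lines, and most others lie within 5 points of 0.

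The 10 highest members differed in how far their leading isoform moved. The leading isoform of EIF4A1 held 98.4% of reads in the control and 98.5% to 98.6% in the G libraries, and that of EIF5A 91.8% and 91.3% to 93.1%. EIF3I, also among the 10 highest members, moved by up to 10.5 points. Isoforms with a hashed identifier, that is without a reference transcript, held 6.0% to 6.67% of the members' reads in the 7 libraries, against 11.2% to 12.5% over all genes. Isoforms annotated for nonsense-mediated decay, a pathway that removes mRNAs with early stops, held 0.450% in the control and up to 0.594% in G14.

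EIF4H and EIF4A2 each have a cassette exon that is read in these libraries. Informative reads, here and for EIF4E2 below, are those of isoforms with a reference transcript identifier that carry either form. They held 82.3% (G13) to 91.1% (G3) of EIF4H reads and 86.1% to 88.9% of EIF4A2 reads. Among informative reads neither exon moved much. The exons are printed because RBFOX2 is a splicing regulator and both are annotated exon choices covered in all 7 libraries (GENCODE 29 transcripts, GRCh38).
EIF4H alternative exon, chr7:74190247-74190306, plus strand, 60 nt: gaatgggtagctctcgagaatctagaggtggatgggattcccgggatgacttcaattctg
EIF4A2 alternative exon, chr3:186784962-186785101, plus strand, 140 nt: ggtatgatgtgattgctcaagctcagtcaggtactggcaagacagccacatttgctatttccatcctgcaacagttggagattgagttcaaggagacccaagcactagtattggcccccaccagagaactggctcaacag

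The EIF4H exon, whose inclusion separates the longer from the shorter annotated protein, was included in 80.3% of informative reads in the control (95% Wilson interval 77.9 to 82.4) and in 81.2%, 82.4%, 81.7%, 79.7%, 76.5% (74.3 to 78.6) and 78.2% across the G libraries. The widest gap to the control was in G13, where the intervals overlap. Over all EIF4H reads, the share of its leading isoform differed from the control by 3.50, 3.28, -0.23, -2.43, -7.55 and -5.48 points across the G libraries. The EIF4A2 exon was skipped in 11.1% of informative reads in the control (10.5 to 11.7) and in 11%, 11.3%, 11.7%, 12.5%, 12.7% (12.1 to 13.3) and 11.7% across the G libraries. G12, G13 and, narrowly, G14 lay above the upper bound of the control, and the intervals of G12 and G13 did not overlap that of the control.

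EIF4E2 changed its last exon. The gene has a proximal last exon, used by an isoform of 1604 nt, and a distal one, used by an isoform of 3448 nt, and the first 30 bases of each are given (GENCODE 29 transcripts, GRCh38).
EIF4E2 proximal last exon, chr2:232568945-232568974, plus strand: aatgccaggcaggctgggcccccaaaggct
EIF4E2 distal last exon, chr2:232580904-232580933, plus strand: ggacaattcaagctttcgaaatacaaaaat

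The proximal form held 83.2% of informative EIF4E2 reads in the control (82.3 to 84.1) and 71.1%, 65.2% (63.9 to 66.5), 70.3%, 81.7%, 82.9% and 70.1% across the G libraries. The intervals of G12 and G13 overlapped that of the control, and those of the other 4 lay below it. Proximal molecules stood at 315 TPM in the control and 139, 137, 163, 283, 286 and 165 TPM across the G libraries. Distal molecules stood at 63.6, 56.5, 73.0, 68.7, 63.3, 59.2 and 70.7 TPM in the same order. The fall of the EIF4E2 total in G3, G5, G11 and G14 was thus a fall of the proximal form, whose length is the shorter, and the part of length in it was not tested.

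EIF4B changed in the share of molecules that span the gene. An isoform was counted as spanning when both its ends lay within 500 bases of the leading annotated isoform, a measure chosen after the isoforms were seen. Spanning reads were 53.0% of EIF4B in the control (49.9 to 56.1) and 61.6%, 49.2%, 34.8%, 27.3%, 25.4% and 22.7% (21.1 to 24.5) across the G libraries. The rest came mainly from hashed isoforms that begin inside the gene and run to its 3′ end. In TPM, spanning molecules were 31.9 in the control and 47.0, 40.5, 27.7, 21.0, 21.0 and 25.1 across the G libraries, and the others 28.3, 29.3, 41.8, 51.9, 55.9, 61.6 and 85.1. The rise of the EIF4B total in G14 lay in molecules that do not span the gene, and with reference isoforms alone its log2 ratio there was -0.28.

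EIF4G1 also had its highest spanning share in G3 and low ones in G12, G13 and G14. Spanning reads were 47.8% in the control (46.1 to 49.5) and 54.9%, 54.1%, 40.4%, 36.8%, 22.0% (19.6 to 24.7) and 27.1% across the G libraries. Its leading isoform was a hashed one that begins at the annotated 5′ end and stops inside the gene, so its missing stretch was at the 3′ side. The share of that isoform rose by 8.99 points in G13 and 8.83 in G14. Which end was missing in the other isoforms that do not span the gene is not given here. In TPM, spanning EIF4G1 molecules went from 98.1 in the control and 174 in G3 to 9.61 in G13, and the others from 107 and 143 to 34.0. Both kinds of molecule were lowest in G13.

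Spanning was not low in every long member. For EIF5, with an annotated length of 5898 nt, it was 89.1% in the control (87.9 to 90.2), 90.7% in G3 and 88.5% in G5. From G11 to G14 it was 83.6%, 82.4%, 83.2% and 81.0% (79.3 to 82.5), with intervals below that of the control. For EEF2 it was 99.0% to 99.8% and for EIF4G2 99.7% to 99.9%. EIF4ENIF1, with an annotated length of 3544 nt, had few reads. Its share was 65.7% in the control (59.8 to 71.1) and lower in every G library, between 54.3% (48.8 to 59.7) in G13 and 63.3% in G3. The labels give RNA integrity numbers between 8.7 and 9.7 over the samples without saying which sample had which. The part of RNA integrity in these shares was not tested.

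**Figure D5:**
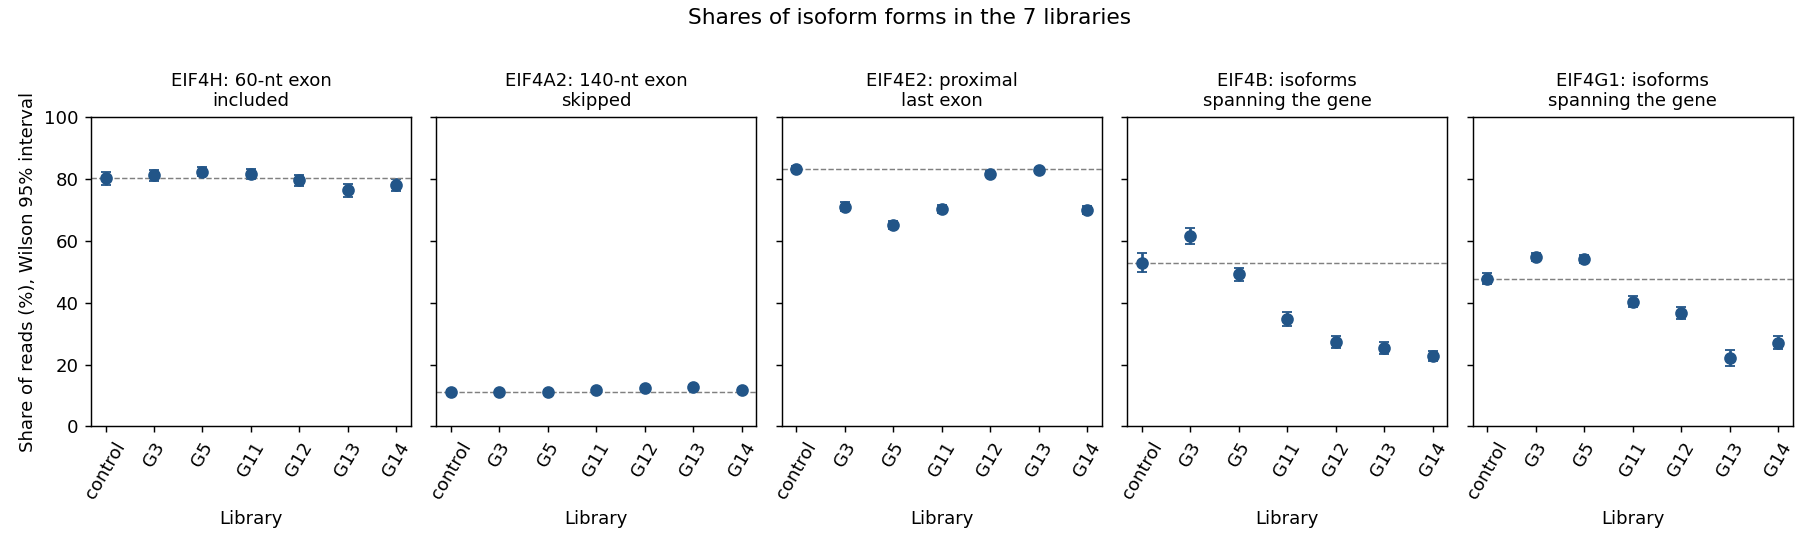
Share of reads (%) in each library with 95% Wilson intervals, and dashed lines at the control. EIF4H exon inclusion, EIF4A2 exon skipping and the EIF4E2 proximal last exon are shares of informative reads. The gene-spanning isoforms of EIF4B and EIF4G1 are shares of all reads of the gene. EIF4H and EIF4A2 stay near the line, EIF4E2 is below it in G3, G5, G11 and G14, and EIF4B and EIF4G1 are lowest in G13 and G14.

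EIF3I and EIF3B complete the members past 10 points. The leading isoform of EIF3I held 60.7% in the control, 66.8% in G3 and 50.1% in G13, against a hashed isoform of nearly the same extent that held 32.0%, 27.8% and 42.8%. The leading isoform of EIF3B held 21 of 131 reads in the control (16.0%) and 42.6% in G5, on few reads. EIF4G1 differed by at most 8.99 points in its leading isoform.

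Genes of the same pathway outside the family were taken from lists of other pathway genes. Of 5 release and recycling genes, 1 was higher in G3, 3 were higher in G14, and none was lower in any G library. Over all genes compared, 8.71% were higher in G3 and 15.5% in G14, and 12.3% (G3) to 31% (G14) were lower. GSPT1, the GTPase of termination, had 58.0 TPM in the control and 181, 57.1, 46.1, 38.8, 42.5 and 139 TPM across the G libraries, higher in G3 and G14 alone. Of 9 other initiation genes compared, DENR and MCTS1, which act together in reinitiation, differed: MCTS1 fell in all 6 G libraries, and DENR had 16.0 TPM in the control and 2.75, 7.15, 13.5, 16.9, 22.5 and 5.39 TPM across the G libraries. PAIP2, an inhibitor of the poly(A)-binding protein, went from 1132 TPM in the control and 895 in G3 to 2248 in G13.

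Among 9 compared targets and regulators of the integrated stress response, which eIF2 phosphorylation sets off, 1 was higher in G3 and 1 in G14. Between 0 (G3) and 3 (G14) were lower. Over all genes compared, 8.71% were higher and 12.3% lower in G3, and 15.5% and 31% in G14. ATF4, the main transcription factor of the response, had 80.2 TPM in the control and 55.4, 44.6, 49.5, 63.2, 63.7 and 42.2 TPM across the G libraries. It was highest in the control. Of the 8 genes that modify eIF5A and eEF2, none was higher in any G library, against 3.71% (G5) to 15.5% (G14) of all genes compared. Up to 2 were lower, in G13, where 29.1% of all genes compared were lower. DHPS, which starts the hypusine modification of eIF5A, fell from 126 TPM to 56.4 in G14.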

How the data were processed

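Per the labels, MAS-Seq libraries of polyadenylated RNA were sequenced on the Revio system and split into reads that each represent 1 cDNA molecule. Per the file headers, the authors deposited for each isoform and library the count of full-length reads and its TPM. Per the submitters' processing notes, minimap2 2.17 and GRCh38 (hg38) were used; the annotation, the isoform counter and its filters are not given in the sources used here. No listed isoform lacked reads in the control, so molecules of isoforms seen in G libraries alone are missing here. The listed isoforms held 98.1% to 98.6% of each G library's reads. The deposited TPM were reads divided by 1 total per library, to within rounding.

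Gene totals are sums over isoforms with the same Ensembl gene stem, library totals were taken from the ratio of count to TPM, and levels were compared as log2(TPM + 0.5) for genes with a mean of at least 5 TPM. The pseudocount understates the ratios of low genes. Percentages of the control are ratios of reads per library total with exact (Clopper-Pearson) 95% intervals, and shares have Wilson intervals; both cover counting error only, since reads carry no molecular identifiers. Length and GC content are means over a gene's listed isoforms that are in GENCODE 29, weighted by their mean TPM in these libraries. Genes without such an isoform took the plain mean of their protein-coding transcripts in GENCODE 29. With 1 library per group no test was run. Python 3.11.15, numpy 2.4.6, pandas 2.3.3 and scipy 1.17.1 were used, and the scripts were tested on simulated data. All columns of the table were used.

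The members, lists and tests were chosen with earlier results of these data known. Named members were the 10 with the highest mean TPM, the 3 largest rises and falls per G library among those with a mean of at least 20 TPM, sets of paralogs, the 3 largest shifts of the leading isoform among those with at least 100 reads in every library, and the 5 widest and 5 narrowest ranges. Other members were named after their values were seen, to complete a role or a group of short transcripts.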

Additional observations from a re-analysis of the deposited data

How the results depend on the processing

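No paired analysis was possible because each group has 1 library and all carry the same replicate number; for the same reason no library could be left out. Pseudocounts of 0.1 and 1 TPM left all counts within 1.5 times and all named ratios in place. The cause of the differences below was not tested, except that a 2-fold or 20-point threshold and smaller sets call fewer members by construction.

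Rescaling by the median of ratios gave 6 members higher by 1.5-fold in G11, 3 in G12 and 9 in G13. Member medians were then -0.10 in G12, -0.0023 in G13 and -0.11 in G14. Over all genes compared the median was 0.0075, -0.03, -0.06 and 0.0086 from G11 to G14, beside -0.04, -0.16, -0.21 and -0.10 as deposited. The share of all genes past 1.5-fold after rescaling is not given here, so these member counts have no background. Reference isoforms alone gave 5 higher in G11 and 3 in G13, and -0.28 for EIF4B in G14, the opposite direction. The share of all genes is not given for that setting either. At 2-fold, 0 members were higher in any of the 6 G libraries, and 4, 8, 4, 8 and 14 were lower in G3, G11, G12, G13 and G14. A minimum mean of 1 TPM gave a median of -0.31 in G14, and one of 20 TPM gave -0.0472 in G11 and -0.0461 in G13.

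With the length and GC trend removed, 2 members were higher in G3, 2 in G5 and 4 in G13, and 4, 8, 7, 6 and 9 were lower in G3, G5, G11, G12 and G13, while 5.02%, 3.30% and 14.4% of all genes were higher and 6.61%, 8.62%, 11%, 10.4% and 13.9% lower in the same libraries. The medians were then -0.0267, -0.0129, -0.0638, -0.11, -0.014 and -0.15 from G3 to G14, and EIF4EBP1 turned to 0.16 in G11 and 0.27 in G14.

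Against the median of the other 6 libraries, 10, 5, 0, 2 and 0 members were higher in G3, G5, G11, G13 and G14. Those lower were 1, 2, 0, 4 and 7 in G3, G5, G11, G12 and G13. The member medians of G3, G11, G12, G13 and G14 were 0.0121, 0.0005, -0.0833, 0.0454 and -0.15. The share of all genes under this reference is not given here, so the counts have no background. Among the members checked here, these changed direction, and the list is not complete. In G3 they were EEF1D (0.68), EEF1E1 (0.0151), EIF3G (0.0071) and EIF3K (0.0195), and in G5 EIF1 (0.27). In G12 they were EEF1AKMT1 (0.56), EEF1D (0.11), EEF1E1 (0.30), EIF3G (0.29), EIF3K (0.36) and EIF3A (-0.0833). In G13 they were EEF1E1 (0.19), EIF3G (0.25) and EIF3K (0.33), and in G14 EIF3A (-0.0577). Outside that list, EEF1B2, EIF1B, EEF1AKMT4, EIF4EBP1 and EIF4E2 in G12 lay below the control and above the median of the other 6 libraries.

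For a leading isoform at least 10 points from the control, isoforms with a mean of at least 1 TPM gave 1 member in G3 and 5 in G14. Reference isoforms gave 1 in each of G3, G11, G12 and G13, and at least 100 reads in every library gave 1 in each of G3, G5 and G12. At 20 points there were 0 in G3 and G11 and 1 in each of G5, G12, G13 and G14. Against the median share of the other libraries there were 0 in G11 and 1 in G14. Apart from the minimum of reads, no share of all genes is given here for these settings.

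Depth limits the members below 5 TPM: 3 reads, the floor used, were worth 0.112 to 0.179 TPM depending on the library. With 1 library per group, a difference between cultures that has nothing to do with RBFOX2 cannot be told apart from one that has.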

Other observations

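Of 9 members listed as known terminal oligopyrimidine mRNAs, 7 reached 5 TPM: EEF1A1, EEF1B2, EEF1D, EEF2, EIF3E, EIF3F and EIF3H. EEF1D, EIF3E and EIF3H are not among the 12 members counted with a run at the annotated start. From G3 to G14, 2, 2, 2, 3, 3 and 4 of the 7 were lower by 1.5-fold, and 1, EEF1A1, was higher in G14. Over all genes compared, 12.3%, 17.2%, 22.5%, 22.6%, 29.1% and 31% were lower in that order, and 15.5% were higher in G14. The median log2 ratio of the 7 was -0.23, 0.02, -0.23, -0.23, -0.01 and -0.61 in the same order. The subunits of the list did not share a level: EIF3E had a mean of 908 TPM and EIF3F one of 12.5 TPM, although both proteins belong to eIF3.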
